A study of Homo sapiens with 5 samples.

Results

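The PMA library of KGN cells was compared directly with the FSK library, with no step through the control. KGN is an established cell line derived from a human granulosa tumour. Phorbol myristate acetate (PMA) is labelled as the activator of protein kinase C (PKC) and forskolin (FSK) as the activator of protein kinase A (PKA). The comparison covers 2 of the 5 libraries of a study on the signalling pathways that lie downstream of the gonadotropins. Of 35453 gene names in the deposited table, 12696 had at least 100 scaled estimated counts in the higher of the PMA and FSK libraries and were compared.

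All groups spent the 24 h of treatment in medium stripped with charcoal, to which 100 nmol/L androstenedione had been added, the substrate from which aromatase makes oestrone. One group received PMA and one FSK, another follicle-stimulating hormone (FSH) at 100 ng/mL, another SC79 at 4 µg/mL, labelled as the activator of protein kinase B, and the control, titled as untreated, received ethanol according to the protocol. The labels read 0.1 mmol/L PMA and 10 mmol/L FSK, while the written protocol has no readable prefix before "mol", so the unit of these doses is not settled here. Each group is 1 library of polyadenylated RNA, made from a 270 ng pool to which 3 cultures, grown in 3 separate weeks, gave 90 ng each. No difference below therefore has a replicate check, and no test across genes was made. Levels are scaled estimated counts unless another unit is given. Fold differences carry exact 95% intervals in square brackets, which cover counting error only.

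Forskolin acts directly on adenylate cyclase, so cAMP rises without a hormone receptor, PKA is released and the transcription factor CREB is phosphorylated. PMA stands in for diacylglycerol, the lipid that activates PKC, and the signal passes on to the ERK kinases and to AP-1, the dimers of FOS and JUN proteins. In the ovarian follicle the FSH and LH receptors signal mainly through cAMP, and cAMP switches on the genes that turn cholesterol into progesterone and androgens into oestrogens. Plasminogen activators and matrix metalloproteinases open the follicle wall at ovulation.

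In units of 1e+06 estimated counts, the library totals were 52.2 with PMA, 52.3 with FSK, 53.5 with FSH, 50.3 with SC79 and 58.8 in control. The granulosa label was checked against 13 markers. FOXL2, the transcription factor that defines granulosa cells, had 5458 with PMA and 10003 with FSK, and the steroidogenic factor NR5A1 had 4766 with PMA and 4684 with FSK. WT1 was at 0 in both libraries, and the receptor gene FSHR was low, with 36.6 with PMA and 132 with FSK. Markers of other cell types were mixed. The T cell gene CD3E and the oocyte gene BMP15 were at 0 in all 5 libraries, and the endothelial cadherin CDH5 had 1.98 with PMA and 0 with FSK. Some other immune and endothelial markers were present and higher with PMA. The macrophage gene CD68 had 2178 with PMA and 863 with FSK. The endothelial gene PECAM1 had 648 with PMA and 172 with FSK. Not all were higher. The endothelial gene KDR was lower, with 104 with PMA and 183 with FSK. The leukocyte gene PTPRC had 37.6 with PMA and 53.2 with FSK. It was under the minimum level, and the interval of its ratio of PMA over FSK, 0.451 to 1.09, includes 1.

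At least 2-fold higher with PMA than with FSK were 737 genes, 5.8% of those compared, and 651, or 5.13%, were at least 2-fold lower. At 4-fold 205 genes, 1.61%, were higher and 192, 1.51%, lower. At 16-fold 29 genes, 0.228%, were higher and 26, 0.205%, lower. Within 1.2-fold lay 6449 genes, 50.8%, and the median log2 ratio over all compared genes was -0.0034. The 737 higher genes held 6.34% of all counts in the PMA library and 2.03% in the FSK library. The 651 lower genes held 3.51% of the PMA counts and 9.55% of the FSK counts. Just inside the minimum level lay AC012184.2 with 100.1 scaled counts, and just outside it ETV7 with 99.97.

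**Figure D1:**
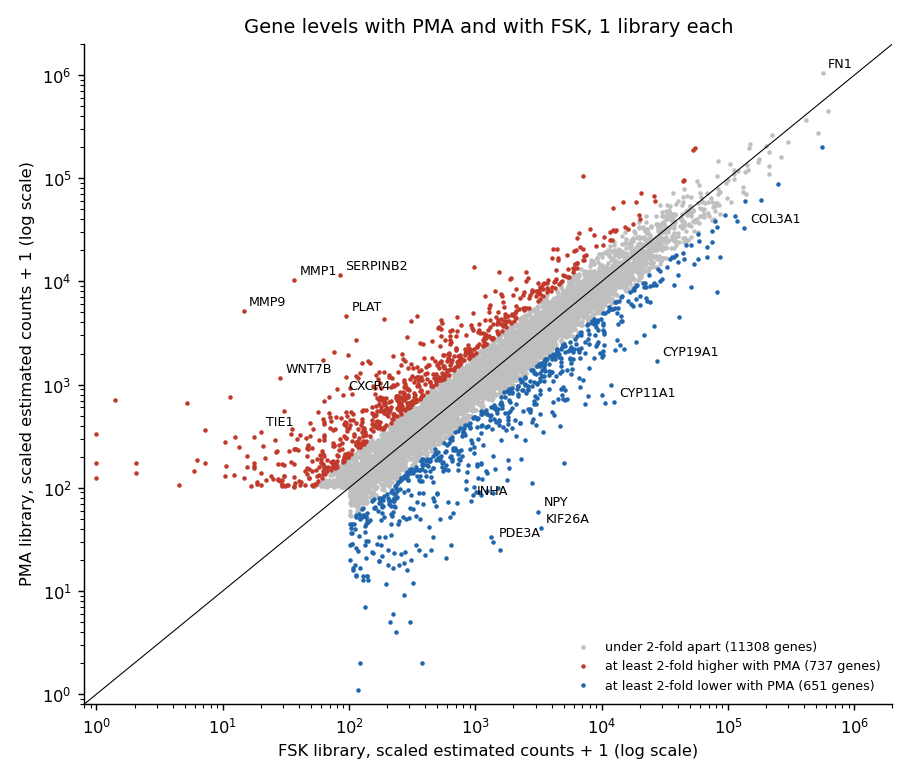
Scaled estimated counts plus 1 of the 12696 compared genes, FSK library on the x axis and PMA library on the y axis, both on log scales, 1 library each. Red points are the 737 genes at least 2-fold higher with PMA and blue points the 651 at least 2-fold lower. MMP9, MMP1 and SERPINB2 lie farthest above the line of equal counts among abundant genes, and KIF26A, NPY and PDE3A far below it.

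A ratio between these libraries can come from either side, so each gene was also set against the range of the FSH, SC79 and control libraries. These 3 libraries lay close to each other, with 33 to 65 genes at least 2-fold apart in any pair of them. Of the 737 higher genes, 218 had the PMA library at least 2-fold above that range, 263 had the FSK library at least 2-fold below it, 21 had both and 235 had neither. The second library could still lie outside on the same side, as FSK did above the range in 14 of the 218 and PMA below it in 13 of the 263. Of the 651 lower genes, 157 had PMA below the range, 213 had FSK above it, 31 had both and 250 had neither, with FSK also below in 2 of the 157 and PMA also above in 8 of the 213. The gene groups described next differed in which side it was. Each list count below is to be read beside the share over all compared genes, 5.8% higher and 5.13% lower.

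Among the 15 protein-coding genes with the highest ratios, 8 encode proteases or protease inhibitors. MMP9, a gelatinase (ENSG00000100985, chromosome 20, 46008908 to 46016561 on GRCh38), had 5124 scaled counts with PMA and 13.6 with FSK. The other libraries had 4.998 with FSH, 10.6 with SC79 and 3.67 in control. MMP9 was thus 377-fold higher [220.2 to 708] with PMA, and the PMA library stood alone. MMP1, the interstitial collagenase (ENSG00000196611, chromosome 11, 102789920 to 102798160), had 10315 with PMA and 35.6 with FSK, which is 290.0-fold higher [207 to 419], beside 37.98 with FSH, 34.96 with SC79 and 16.5 in control. SERPINB2, the inhibitor of plasminogen activators also called PAI-2 (ENSG00000197632, chromosome 18, 63871692 to 63903890), had 11472 with PMA and 83.7 with FSK, which is 137-fold higher [110.1 to 173]. Its other libraries lay between 35.7 and 56.9, at the FSK level and far from the PMA level. MMP10, a stromelysin, had 657 with PMA and 4.18 with FSK, with an interval from 61.1 to 578-fold, and the control was at 0.

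FAP, a serine protease of the cell surface, had 765 with PMA and 10.5 with FSK, PRSS3, a trypsin, 361 with PMA and 6.28 with FSK, and SERPINA1, the inhibitor of neutrophil elastase, 1747 with PMA and 60.7 with FSK. COL5A3, a fibrillar collagen chain, had 123 counts with PMA and 0 with FSK, at least 39.1-fold higher against 3 counts in the FSK library. FCRLA, an Fc receptor-like protein known from B cells, had 173 with PMA and 0 with FSK, at least 55.2-fold. The remaining genes at the top are of other kinds. WNT7B is a Wnt ligand, KIF26B a kinesin, SHANK1 a synaptic scaffold, CSRP3 a muscle LIM protein and DCSTAMP a membrane protein of osteoclast fusion. WNT7B had 1146 with PMA and 27.3 with FSK, beside 87.6 with FSH, 57.9 with SC79 and 102 in control, so PMA lay above the other libraries and FSK below them. KIF26B had 2048 with PMA and 74.3 with FSK. DCSTAMP had 173 with PMA and 1.05 with FSK and CSRP3 137 with PMA and 1.05 with FSK, each about 1 count with FSK, which gives wide intervals whose lower limits are 29.3 and 23.1-fold.

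Of the 15 lowest protein-coding genes, LGALS12, a galectin, had 0.9898 scaled counts with PMA and 379.7 with FSK. With about 1 count in the PMA library its ratio was 384-fold lower [68.4 to 15194], and the other libraries had 14.99 with FSH, 6.36 with SC79 and 1.84 in control. KIF26A, an atypical kinesin (ENSG00000066735, chromosome 14, 104138723 to 104180894), had 39.6 with PMA and 3279 with FSK, which is 82.8-fold lower [60.7 to 116], and 546 with FSH, 50.8 with SC79 and 49.6 in control. VWA5B2 had 23.8 with PMA and 1555 with FSK, beside 201 with FSH, 38.1 with SC79 and 41.3 in control. In KIF26A and VWA5B2 the FSH library was the second highest, and PMA lay below control. AQP2, the water channel that vasopressin controls through cAMP in the kidney, had 2.97 with PMA and 233 with FSK, and 50.98 with FSH. NPY, the appetite neuropeptide, had 57.4 with PMA and 3138 with FSK, which is 54.7-fold lower [42.2 to 72.2], and its other libraries lay between 149 and 237. NPY thus lay on both sides of the remaining libraries, low with PMA and high with FSK. The same held for ALDH1A1, which makes retinoic acid, with 4.95 with PMA and 219.7 with FSK, for the growth factor gene IGF1 with 8.12 with PMA and 273 with FSK, and for CRISPLD2, a secreted protein, with 171 with PMA and 4981 with FSK. Others among the lowest were ZMAT4 (a zinc finger protein, -5.93), MLC1 (an astrocyte membrane protein, -5.41), RASL11B (a small GTPase, -5.29), GREB1 (an oestrogen-responsive gene, -4.81) and BMP3 (a BMP family ligand, -4.75), values being log2 ratios of PMA over FSK.

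By the size of the difference in scaled counts, which also depends on transcript length, the leading genes higher with PMA included FN1, CEMIP, TIMP1 and THBS1. FN1, fibronectin, had 1048118 with PMA and 561486 with FSK, a log2 ratio of 0.90 and so under 2-fold. CEMIP, which binds and helps degrade hyaluronan, had 198228 with PMA and 54288 with FSK, which is 3.65-fold higher [3.62 to 3.69]. The largest differences the other way were IGFBP5, COL1A1, EEF1A1, SPARC and EDIL3. IGFBP5, an IGF-binding protein, had 198638 with PMA and 555896 with FSK, which is 2.799-fold lower [2.78 to 2.81]. EDIL3, an integrin-binding matrix protein, had 61252 with PMA and 182429 with FSK. EEF1A1, the translation elongation factor, had 445693 with PMA and 612325 with FSK and COL1A1 276866 with PMA and 515311 with FSK, both under 2-fold.

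The protease system list held 38 compared genes, of which 15 were at least 2-fold higher with PMA and 4 lower, with a median log2 ratio of 0.43. In 10 of the 15 higher genes PMA lay 2-fold above the FSH, SC79 and control range with FSK not 2-fold below it, and in 1 of the 10 FSK was 2-fold above it too. In PLAT PMA lay 2-fold above the range and FSK 2-fold below it. PLAT, tissue plasminogen activator, had 4613 with PMA and 94.2 with FSK, which is 48.99-fold higher [39.8 to 61.05], and 406 with FSH, 360.3 with SC79 and 480.2 in control. PMA was thus the highest library for PLAT and FSK the lowest. PLAU, urokinase, had 16855 with PMA and 4032 with FSK at 75.9% own 31-base words (the share of a gene's 31-base words that no other annotated gene holds). Its other libraries had 11676 with FSH, 9954 with SC79 and 12760 in control. For PLAU, FSK thus lay 2-fold below the range, while PMA was not 2-fold above it. The receptor gene PLAUR had 10494 with PMA and 1882 with FSK, a log2 ratio of 2.48.

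MMP14, a membrane-bound metalloproteinase, had 58859.7 with PMA and 14708 with FSK, and the inhibitor TIMP1 188333 with PMA and 52826 with FSK, while the inhibitors TIMP2 and TIMP3 had log2 ratios of -0.23 and -0.95. TFPI2, a serine protease inhibitor of the matrix, had 16104 with PMA and 4507 with FSK and only 191 in control, so both treatments were above it. The 4 genes lower with PMA were SERPINE2 (protease nexin, 17324 with PMA and 86986 with FSK), MMP16 (2709 with PMA and 13293 with FSK), ADAMTS5 (441 with PMA and 1546 with FSK) and ADAMTS9. SERPINE2 was 5.02-fold lower [4.94 to 5.104], and FSK stood above the other libraries, whose values were 24958 with FSH, 25657 with SC79 and 23077 in control. ADAMTS9 lay at the threshold with a log2 ratio of -1.002, and under 2-fold with other scalings or a pseudocount of 5. MMP2, a gelatinase abundant in these cells, had 142516 with PMA and 171723 with FSK, a log2 ratio of -0.27.

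**Figure D2:**
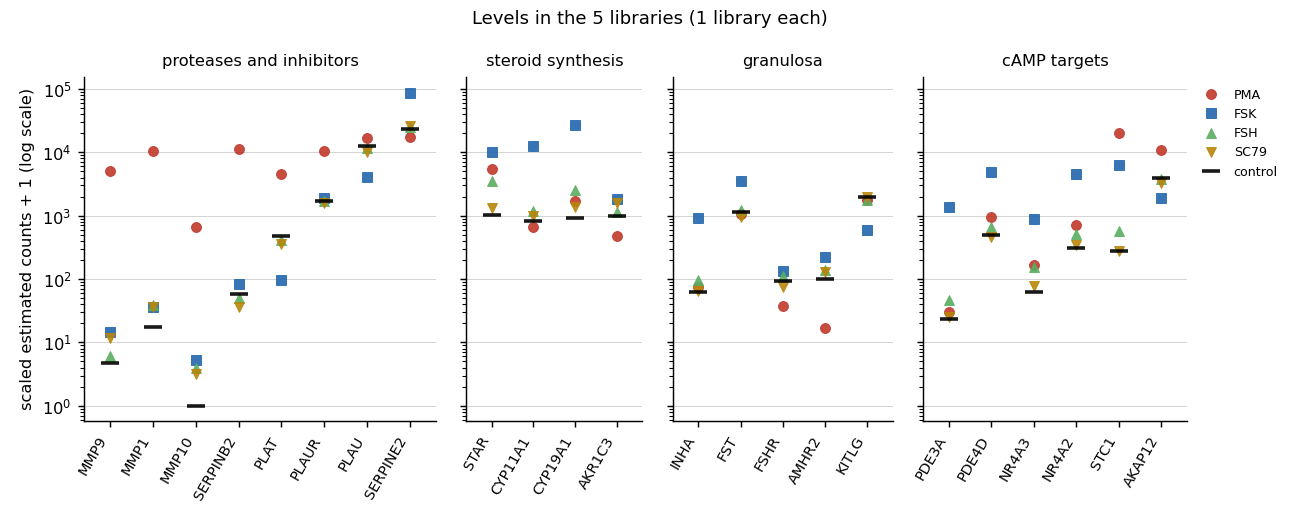
Scaled estimated counts plus 1 (log scale) of single genes in the PMA, FSK, FSH, SC79 and control libraries, 1 library each, in 4 groups of genes. In the protease group the red PMA points lie above the other libraries for MMP9, MMP1, MMP10 and SERPINB2, and in the cAMP group the blue FSK squares lie above the others for PDE3A, PDE4D, NR4A3 and NR4A2.

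Promoters of 3 genes of this group are shown because their levels set the PMA library apart and because each holds the AP-1 letters TGANTCA, printed in capitals together with any CRE core TGACG or its reverse complement CGTCA. The sequences are from RefSeq on GRCh38.p14 and run from 250 bases before the annotated start to 50 bases after it, 5′ to 3′ on the gene's strand. Read on both strands, TGANTCA is in 7.71% of all 35116 promoters of the same length and the core TGACG in 24.6%, and the letters of these motifs cannot overlap each other. MMP10 lies at chr11:102780579-102780878 (minus strand) and holds TGAATCA at position -67. SERPINB2 lies at chr18:63887455-63887754 (plus strand) and holds TGAATCA at position -102 and CGTCA at position 27. PLAUR lies at chr19:43670120-43670419 (minus strand) and holds TGAGTCA at position -186. These matches describe the letters and do not show that a factor binds. The 3 genes were chosen for holding TGANTCA, and PLAU and TIMP1 of the same list lack it in such promoters. Among promoters of all compared genes TGANTCA is in 5.12%.
MMP10: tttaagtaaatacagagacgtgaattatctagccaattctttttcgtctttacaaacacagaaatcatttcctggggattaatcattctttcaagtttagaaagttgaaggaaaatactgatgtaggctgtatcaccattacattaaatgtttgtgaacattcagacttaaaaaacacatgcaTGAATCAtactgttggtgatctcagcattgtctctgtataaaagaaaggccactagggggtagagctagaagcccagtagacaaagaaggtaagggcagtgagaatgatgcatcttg
SERPINB2: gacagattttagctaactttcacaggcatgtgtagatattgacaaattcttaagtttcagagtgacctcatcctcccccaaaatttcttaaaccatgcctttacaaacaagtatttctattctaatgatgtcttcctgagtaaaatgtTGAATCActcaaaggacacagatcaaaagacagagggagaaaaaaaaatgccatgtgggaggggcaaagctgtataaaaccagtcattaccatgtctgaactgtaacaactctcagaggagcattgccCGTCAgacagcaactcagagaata
PLAUR: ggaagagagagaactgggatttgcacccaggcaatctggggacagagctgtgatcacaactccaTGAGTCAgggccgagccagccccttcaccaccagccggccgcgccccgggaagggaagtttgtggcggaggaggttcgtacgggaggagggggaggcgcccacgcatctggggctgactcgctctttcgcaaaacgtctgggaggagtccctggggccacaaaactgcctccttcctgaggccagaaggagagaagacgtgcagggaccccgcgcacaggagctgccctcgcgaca

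Among genes of steroid synthesis, CYP19A1 and CYP11A1 lay far lower with PMA than with FSK. CYP19A1, the aromatase that turns androstenedione into oestrone (ENSG00000137869, chromosome 15, 51208057 to 51338610), had 1690.5 with PMA and 27444 with FSK, which is 16.2-fold lower [15.5 to 17.1]. The other libraries had 2568 with FSH, 1383 with SC79 and 902 in control, so PMA lay within their range and FSK above it. CYP11A1, which cleaves the side chain of cholesterol (ENSG00000140459, chromosome 15, 74337759 to 74367740), had 671 with PMA and 12450.3 with FSK, which is 18.6-fold lower [17.2 to 20.1], and 1192 with FSH, 970.4 with SC79 and 826 in control. STAR, the carrier of cholesterol into mitochondria, had 5383 with PMA and 10091 with FSK, a difference of 1.87-fold lower [1.81 to 1.94], and 3535 with FSH, 1335 with SC79 and 1012 in control. In STAR, unlike CYP19A1 and CYP11A1, the PMA library was also above FSH, SC79 and control. Its ratio to FSK stayed under 2-fold. HSD3B2, which makes progesterone, was under the minimum level with 14.9 with PMA and 73.2 with FSK.

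Over the list, 1 of 23 compared genes was at least 2-fold higher with PMA and 6 were lower, with a median of -0.23. The aldo-keto reductases AKR1C1, AKR1C2 and AKR1C3, which reduce steroid ketones, were 3 of the 6. AKR1C3, which turns androstenedione into testosterone, had 481 with PMA and 1809.9 with FSK, beside 1124 with FSH, 1570.1 with SC79 and 992 in control. AKR1C1 had 170.0 with PMA and 1022 with FSK and AKR1C2 48.4 with PMA and 363 with FSK, where AKR1C1 has 64.3% and AKR1C2 51.8% own 31-base words and each can trade reads with its neighbours. In these 3 genes PMA lay 2-fold below the range of FSH, SC79 and control, the reverse of CYP19A1 and CYP11A1. CYP1B1, a cytochrome that hydroxylates oestrogens, had 652 with PMA and 2097 with FSK. SRD5A1, a steroid reductase, was the gene on the higher side with 1805 with PMA and 888 with FSK, a log2 ratio of 1.02. The regulators NR5A1 and NR5A2 had log2 ratios of 0.02 and 0.09.

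Cholesterol supply showed fewer differences, with 0 of 22 genes at least 2-fold higher and 4 lower. Among the lower ones, SCARB1, the HDL receptor, had 1011 with PMA and 3056 with FSK, with 2127 in control. NPC1, which moves cholesterol out of lysosomes, had 1332 with PMA and 3961 with FSK, and STARD5, a sterol carrier with 30.3% own words, 335 with PMA and 1111 with FSK. Of 24 cholesterol synthesis genes 2 were lower, among them the reductase TM7SF2 with 395 with PMA and 1255 with FSK, and 0 were higher. Over all compared genes 5.13% were lower and 5.8% higher.

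Among granulosa genes, 3 of 28 were at least 2-fold higher with PMA and 8 lower, and the median of -0.61 was the lowest of the lists. INHA, the alpha subunit of inhibin (ENSG00000123999, chromosome 2, 219569162 to 219575713), had 74.2 with PMA and 922 with FSK, which is 12.4-fold lower [9.799 to 15.9], and 93.96 with FSH, 63.6 with SC79 and 61.5 in control. AMHR2, the receptor of anti-Müllerian hormone, had 15.8 with PMA and 219.7 with FSK, which is 13.9-fold lower [8.34 to 24.7], and 139 with FSH, 128 with SC79 and 98.2 in control. INHA was set by the FSK library and AMHR2 by the PMA library. FSHR had 36.6 with PMA and 132 with FSK, which is 3.599-fold lower [2.48 to 5.34], and follistatin, FST, which binds activin, had 1079 with PMA and 3514 with FSK. Also lower were the transcription factors FOXO1 (909 with PMA and 2609 with FSK) and LHX9 (451 with PMA and 1306 with FSK) and the co-receptor TGFBR3 (233 with PMA and 687 with FSK). FOXL2 and GATA4 stayed under 2-fold, with log2 ratios of -0.87 and -0.95, and AMH was at -0.40.

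On the higher side INHBB, a beta subunit of inhibin and activin, had 123 with PMA and 13.6 with FSK, which is 9.03-fold higher [5.09 to 17.4], and 78.96 with FSH, 90.04 with SC79 and 93.7 in control. INHBA, the other beta subunit, had 2907 with PMA and 5223 with FSK, a log2 ratio of -0.85, so the subunits lay on different sides. KITLG, which granulosa cells make for the KIT receptor of oocytes, had 1794 with PMA and 603 with FSK, which is 2.98-fold higher [2.71 to 3.28], and 1761 with FSH, 1985 with SC79 and 2001 in control, with FSK as the library that stood apart. NR2F2, also counted in the granulosa list although it is a nuclear receptor of stromal and theca cells, had 21929 with PMA and 9078 with FSK. LHCGR, the LH receptor, had 3.96 counts with PMA and 13.6 with FSK and was not compared.

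In the wider list of TGF-beta and BMP genes 4 of 47 were at least 2-fold higher and 10 lower, beside 5.8% and 5.13% over all compared genes. ID2 and ID4, inhibitors of helix-loop-helix factors, had 671 with PMA and 4075 with FSK, and 419 with PMA and 2252 with FSK. The receptor TGFBR1 had 4620.2 with PMA and 14096 with FSK. SMAD6, an inhibitory SMAD of the BMP branch, had 978 with PMA and 2186 with FSK. SMAD9, a signal carrier of the same branch, had 601 with PMA and 1424 with FSK. CYR61, a matricellular protein, was higher with 31438 with PMA and 12190.3 with FSK.

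A list of cAMP and CREB targets, which also holds the CREB coactivators CRTC1, CRTC2 and CRTC3, had 41 compared genes. Of these, 13 were at least 2-fold lower with PMA and 4 higher, with a median of -0.35. In all 13 of the lower ones the FSK library lay at least 2-fold above FSH, SC79 and control, and PMA lay 2-fold outside their range in 0 of the 13. PDE3A, a phosphodiesterase that breaks down cAMP (ENSG00000172572, chromosome 12, 20369245 to 20684381), had 28.7 with PMA and 1376 with FSK, which is 47.9-fold lower [33.2 to 71.8], and 44.8 with FSH, 24.4 with SC79 and 22.04 in control. The orphan nuclear receptors NR4A2 and NR4A3 had 723 with PMA and 4494 with FSK, and 166 with PMA and 878 with FSK. In control NR4A2 had 311 and NR4A3 61.5. NR4A1, the third of this family, was under 2-fold at a log2 ratio of -0.77, and so was CREM, the cAMP-responsive factor, at -0.52.

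SIK1, a kinase that restrains CREB coactivators, had 654 with PMA and 2919.6 with FSK at only 9.62% own words, so its reads may belong to another copy. KLF9, a zinc finger factor, had 877 with PMA and 5145 with FSK. KLF4, a related factor, had 434 with PMA and 1460.2 with FSK. DUSP1 and BDNF, a phosphatase and a neurotrophin, lay near the threshold with log2 ratios of -1.03 and -1.08. The list was not uniform. STC1, a secreted glycoprotein, was higher with PMA, at 20124 with PMA and 6305 with FSK, which is 3.19-fold higher [3.101 to 3.29], and its other libraries had only 563 with FSH, 271 with SC79 and 277 in control. AKAP12, an anchor that holds PKA and PKC near the membrane, had 10755 with PMA and 1928 with FSK, which is 5.58-fold higher [5.31 to 5.86], beside 3750.5 with FSH, 3229.7 with SC79 and 3998 in control. GEM, a small GTPase, and FOSB, an AP-1 subunit, had log2 ratios of 1.51 and 1.34. AREG, an EGF receptor ligand, differed by little between these libraries, with 416 with PMA and 413 with FSK, and both stood above the others, which had 72.97 with FSH, 46.6 with SC79 and 68.9 in control.

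Phosphodiesterases, which end cyclic nucleotide signals, accounted for several of these genes, with 5 of 13 lower and 1 higher. PDE4D had 936 with PMA and 4889 with FSK, PDE4B 238 with PMA and 908 with FSK and PDE7B 1150.0 with PMA and 6607 with FSK. In control PDE4D had 497, PDE4B 111 and PDE7B 372, so the PMA library was above control too. PDE1A, which calcium and calmodulin activate, had 26.7 with PMA and 638 with FSK, which is 23.9-fold lower [16.2 to 36.5], beside 112 with FSH, 121 with SC79 and 88.3 in control, so both libraries stood apart. PDE2A, which cGMP stimulates, went the other way with 248 with PMA and 12.6 with FSK, which is 19.8-fold higher [11.1 to 38.8]. The other libraries had 8.996 with FSH, 14.8 with SC79 and 10.1 in control, so the FSK level lay close to them.

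The promoters of INHA and PDE7B are shown because both genes were far lower with PMA than with FSK and because they hold CRE letters near the start. They are chosen cases. PDE3A, PDE4B and CYP11A1, also lower with PMA than with FSK, hold neither TGACGTCA nor TGACG in such promoters. MCM10, higher with PMA, holds TGACGTCA. PDE7B lies at chr6:135851451-135851750 (plus strand) and holds the full CRE TGACGTCA at position -155, which contains TGACG at -155 and CGTCA at -152. TGACGTCA is in 1.85% of all promoters in the table and in 2.77% of those of all compared genes. INHA lies at chr2:219572060-219572359 (plus strand) and holds CGTCA at position -138 and also the AP-1 letters TGAGTCA at position -230. INHA and SERPINB2 thus hold both kinds of letters while their levels lay in opposite directions. Over all genes at least 2-fold higher and lower, only 74.5% and 76.0% had a promoter in the table, so a comparison of motif shares between the gene sets is void.
PDE7B: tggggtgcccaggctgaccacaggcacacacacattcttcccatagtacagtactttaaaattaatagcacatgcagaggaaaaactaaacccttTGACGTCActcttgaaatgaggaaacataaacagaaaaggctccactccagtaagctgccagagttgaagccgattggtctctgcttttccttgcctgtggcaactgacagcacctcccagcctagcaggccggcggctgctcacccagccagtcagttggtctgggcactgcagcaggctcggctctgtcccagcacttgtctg
INHA: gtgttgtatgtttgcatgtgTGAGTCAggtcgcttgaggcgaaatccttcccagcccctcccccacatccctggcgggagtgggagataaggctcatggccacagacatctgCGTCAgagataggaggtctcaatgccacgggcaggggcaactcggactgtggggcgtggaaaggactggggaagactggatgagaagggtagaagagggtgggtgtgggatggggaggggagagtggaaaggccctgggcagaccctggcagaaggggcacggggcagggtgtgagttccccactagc

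Genes of the signalling proteins themselves had counts near the share over all compared genes, which was 5.8% higher and 5.13% lower. Among PKA subunits, inhibitors, anchors and adenylate cyclases 1 of 25 was higher and 2 were lower. The higher one was AKAP12 and the lower ones were PRKAR2B, a regulatory subunit, with 658 with PMA and 1582 with FSK and RAPGEF4, a cAMP-activated exchange factor, with 150.4 with PMA and 377 with FSK. For PRKAR2B the PMA library stood apart, since the others had 1599 with FSH, 1639.8 with SC79 and 1829 in control. PKC and PKD isoforms, other phorbol ester receptors and diacylglycerol kinases had 2 of 31 higher and 0 lower. DGKH, which removes diacylglycerol, had 1009 with PMA and 399 with FSK, and GAP43, a PKC substrate of neurons, 196 with PMA and 91.003 with FSK. The isoform genes PRKCA, PRKCD and PRKCE had log2 ratios of -0.39, 0.65 and -0.41, and PRKCB was near 0 counts with 5.69 with PMA and 12.02 with FSK.

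Of 15 AP-1 genes 3 were past 2-fold on the PMA side and 0 on the FSK side after 24 h, beside 5.8% and 5.13% over all compared genes. FOSL1 had 8478 with PMA and 3752 with FSK, but its other libraries had 16896 with FSH, 16275 with SC79 and 17835 in control, so both treatments lay below them and FSK the lower. FOSB had 435 with PMA and 172 with FSK, with control at 439, and JUN 10971 with PMA and 5459 with FSK, a log2 ratio of 1.01 that drops under 1 with the authors' scaling. JUN had 11198 with FSH, 10790 with SC79 and 12424 in control, so PMA lay within their range and FSK below it. FOS itself had 645 with PMA and 1078 with FSK, a log2 ratio of -0.74.

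Targets and feedback genes of ERK had a median of 0.55, with 13 of 42 higher with PMA and 5 lower. In 5 of the 13 higher genes only PMA lay 2-fold outside the FSH, SC79 and control range, above it. In 3 only FSK did, below it, in 1 both did and in 4 neither. SPHK1, which makes sphingosine phosphate, had 1210.5 with PMA and 112 with FSK, which is 10.8-fold higher [8.87 to 13.3]. DUSP5, a nuclear ERK phosphatase, had 1890.4 with PMA and 219.7 with FSK and DUSP6, its cytoplasmic relative, 4193 with PMA and 1185 with FSK. DUSP4, another of these phosphatases, went the other way with 4107 with PMA and 14377 with FSK and 8005 in control. The transcription factors KLF5, ETS1 and ETV4 had log2 ratios of 2.70, 1.74 and 1.04, and the early-response gene IER3 was at 2.38. SPRY1, an inhibitor of growth factor signalling, was lower with 684 with PMA and 1864 with FSK, while SPRY4 was at 0.89. IL11, a cytokine of the IL6 family, had 9716 with PMA and 21894 with FSK and only 1096 in control, so both treatments stood above it and FSK the more.

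Of 49 NF-kB genes, cytokines and their receptors, 14 were at least 2-fold higher with PMA and 6 lower. IL24, a cytokine of the IL10 family, had 2680.2 with PMA and 113 with FSK, which is 23.7-fold higher [19.6 to 29.03], and 29.99 with FSH, 18.01 with SC79 and 18.4 in control. CXCR4, the receptor of CXCL12, had 793 with PMA and 87.9 with FSK, which is 9.02-fold higher [7.199 to 11.4], beside 10.99 with FSH, 3.18 with SC79 and 10.1 in control, while the second CXCL12 receptor, ACKR3, was lower with 23.8 with PMA and 202 with FSK. The neutrophil attractant CXCL8 had 12767 with PMA and 4369 with FSK, and IL33, an alarmin, 7491 with PMA and 1596 with FSK. IL1A and IL1B, both interleukin-1 ligands, had 705 with PMA and 238 with FSK, and 1721 with PMA and 629 with FSK, whereas their receptor gene IL1R1 had 573 with PMA and 2617 with FSK. Ligand and receptor of this pair thus lay on opposite sides. ICAM1, an adhesion molecule for leukocytes, had 468 with PMA and 84.98 with FSK, with 91.1 with FSH, 81.7 with SC79 and 106 in control. The feedback genes NFKBIE, TNIP1 and TRAF1 had log2 ratios of 1.32, 1.29 and 1.55. IL18R1, a chain of the IL18 receptor, had 21.8 with PMA and 258 with FSK, which is 11.9-fold lower [7.66 to 19.3], and TNFSF10, the death ligand TRAIL, 544 with PMA and 2694 with FSK. For both, FSK was far above FSH, SC79 and control, which lay between 3.67 and 7.996 in IL18R1. In IL18R1 the PMA library was above these as well.

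Genes of ovulation were split, with 4 of 30 higher with PMA and 3 lower, beside 5.8% and 5.13% over all compared genes. PTGES, which makes prostaglandin E, had 21.1 with PMA and 397 with FSK, which is 18.8-fold lower [12.3 to 31.2], and 24.4 with FSH, 11.9 with SC79 and 7.498 in control. PTGS1, the cyclooxygenase one step earlier, was higher with 172 with PMA and 58.6 with FSK, while PTGS2, the inducible cyclooxygenase, had 4123 with PMA and 2288 with FSK, a log2 ratio of 0.85. ABCC4, which exports prostaglandins and cyclic nucleotides, had 6041 with PMA and 16974 with FSK. HAS2, which makes the hyaluronan of the cumulus matrix, had 291 with PMA and 61.8 with FSK, which is 4.71-fold higher [3.55 to 6.35], and 326 with FSH, 314 with SC79 and 382 in control, so FSK was the library that stood apart. EREG, an EGF receptor ligand, had 73.6 counts with PMA and 19.4 with FSK and was under the minimum level. ERRFI1, a feedback inhibitor of the EGF receptor, had 6931 with PMA and 2252 with FSK, and the receptor gene EGFR had a log2 ratio of 0.92.

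Among the 33 lists other than cell type markers, DNA replication and mitosis had the highest medians. All 41 DNA replication genes had a ratio above 0, 28 were at least 2-fold higher with PMA, and the median was 1.17. Of 35 cell division genes 18 passed 2-fold on the higher side and 0 on the lower, with a median of 1.01. In 27 of the 28 and in all 18 the FSK library lay at least 2-fold below FSH, SC79 and control, and in 1 of the 27 and 5 of the 18, MKI67 among them, PMA lay 2-fold below them as well. Summed over the list, DNA replication genes had 81979 scaled counts with PMA and 38178 with FSK, beside 92228 to 108596 in the other libraries. Cell division genes summed to 63264 with PMA and 32077 with FSK, beside 109399 to 131860. Both sums were therefore below the other libraries with PMA too, and lower still with FSK. In RNA from whole cultures, fewer cells in a phase of the cycle and less RNA per cell cannot be told apart.

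ZNF367, a zinc finger factor of the cell cycle, had 909 with PMA and 79.5 with FSK, which is 11.4-fold higher [9.04 to 14.6], and 791 with FSH, 655 with SC79 and 929 in control. MCM10 and CDC45, parts of the replication fork machinery, had 802 with PMA and 104 with FSK, and 462 with PMA and 60.7 with FSK. UHRF1, which carries DNA methylation through replication, had 3538 with PMA and 503 with FSK at 72.7% own words, and RRM2, of deoxynucleotide synthesis, 2964 with PMA and 533 with FSK. In ZNF367 and CDC45 the PMA level lay close to control, with 929 and 465 there. E2F1, the factor that starts S phase, had 1537 with PMA and 254 with FSK, which is 6.05-fold higher [5.28 to 6.95], and its repressive relative E2F8 324 with PMA and 39.7 with FSK. PKMYT1, a kinase that holds CDK1 inactive, had 933 with PMA and 101 with FSK at 71.9% own words.

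MKI67, the proliferation marker (ENSG00000148773, chromosome 10, 128096659 to 128126385), had 6251 with PMA and 1654 with FSK, which is 3.78-fold higher [3.58 to 3.997], and 12550.1 with FSH, 13032 with SC79 and 14758 in control. AURKB, a kinase of the centromere, had 566 with PMA and 129 with FSK and TOP2A, a topoisomerase, 5568 with PMA and 2508 with FSK. CCNA2, cyclin A, had 1622 with PMA and 1005 with FSK, a log2 ratio of 0.69, and BUB1, a checkpoint kinase, was the lowest at -0.22. For MKI67, AURKB and TOP2A, PMA lay between FSK and the other libraries. Least different among replication genes were POLD2 and RPA1, a polymerase subunit and a single-strand binding protein, with log2 ratios of 0.17 and 0.27.

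**Figure D3:**
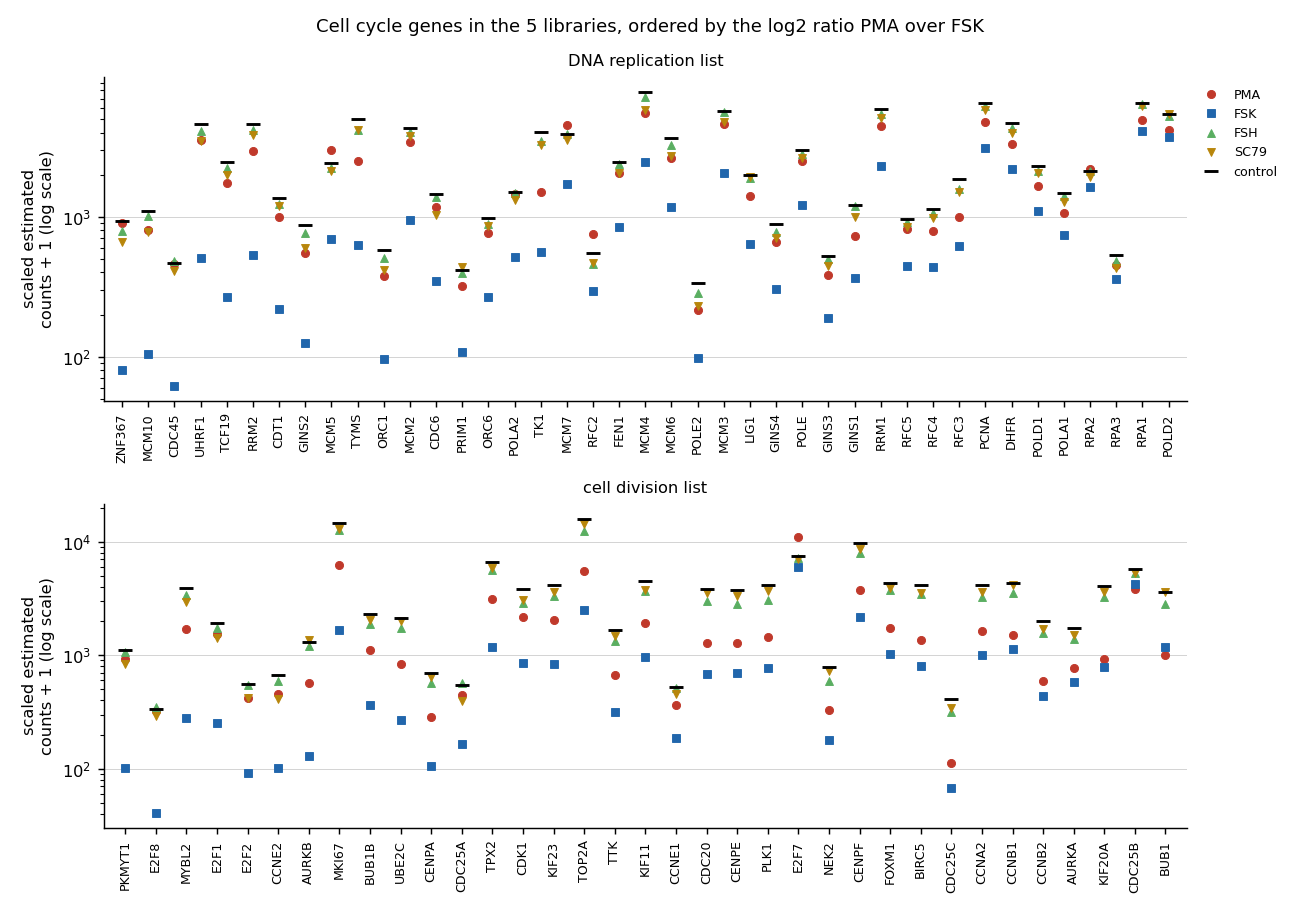
Scaled estimated counts plus 1 (log scale) of 41 DNA replication genes (top) and 35 cell division genes (bottom) in the PMA, FSK, FSH, SC79 and control libraries, 1 library each, ordered by the log2 ratio of PMA over FSK. FSK squares lie lowest for all but a few genes at the right, and PMA points lie near the other libraries in the top panel and mostly between them and FSK in the bottom panel.

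Upstream of these, CCND1, cyclin D of the G1 phase, had 51175 with PMA and 12243 with FSK, which is 4.18-fold higher [4.097 to 4.27], and 26689 with FSH, 26448 with SC79 and 28966 in control. Of 20 genes of the G1 list 3 were higher and 1 lower. TOB1, an antiproliferative factor, was the lower one with 2459 with PMA and 9170.4 with FSK and 1449.7 in control. CDKN1A, the inhibitor p21, had 32184 with PMA and 32151 with FSK. Among BCL2 family genes 3 of 23 were higher and 1 lower. BCL2, which protects from cell death, had 167 with PMA and 26.2 with FSK, which is 6.396-fold higher [4.19 to 10.2], with FSK apart from the other libraries at 142 with FSH, 119 with SC79 and 178 in control. The death-promoting genes were divided, with PMAIP1 at 1803 with PMA and 449 with FSK and BMF at 1936 with PMA and 549 with FSK, but BCL2L11 at 2195 with PMA and 5553 with FSK. PMAIP1 had 1255 with FSH, 1372 with SC79 and 1419 in control, so FSK was 2-fold below them and PMA not 2-fold above. BMF had 593 with FSH, 536 with SC79 and 492 in control, so PMA was the library that stood apart.

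Angiogenic factors and receptors had a median of 0.88, with 13 of 31 at least 2-fold higher with PMA and 3 lower. VEGFA, the main vascular growth factor, had 30614 with PMA and 12689 with FSK, which is 2.41-fold higher [2.36 to 2.46], and 8745 in control. VEGFC, the lymphatic growth factor, had 5886 with PMA and 1301 with FSK, and PDGFB, a growth factor for pericytes, 695 with PMA and 62.8 with FSK. ANGPTL4, a lipase inhibitor, had 1619 with PMA and 126 with FSK and ESM1, a secreted proteoglycan, 1689.5 with PMA and 140.2 with FSK. The fibroblast growth factors FGF5, FGF1 and FGF2 had log2 ratios of 2.95, 2.61 and 1.11. Lower were the ligands ANGPT1 with 273 with PMA and 945 with FSK, PDGFD with 2572 with PMA and 9285 with FSK and EDN1, endothelin, with 69.3 with PMA and 204 with FSK.

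Endothelial markers were divided. Of 7 markers 4 were compared and 3 were at least 2-fold higher with PMA, the receptor TIE1 with 349 with PMA and 18.95 with FSK, VWF with 238 with PMA and 36.5 with FSK and PECAM1 with 648 with PMA and 172 with FSK. The fourth, the VEGF receptor KDR, lay the other way with 104 with PMA and 183 with FSK, a log2 ratio of -0.81 and so under 2-fold. The 7 markers summed to 1356 scaled counts with PMA and 420.6 with FSK, beside 365.1 to 464.7 in the other libraries, and the defining cadherin CDH5 had 1.98 counts with PMA and 0 with FSK. Of 8 immune markers 2 were compared and both were higher, CSF1R with 209 with PMA and 57.5 with FSK and CD68 with 2178 with PMA and 863 with FSK. The immune markers summed to 2446 with PMA and 988.2 with FSK, beside 922.1 to 1194 in the other libraries, with CD3E at 0 in all and the pan-leukocyte gene PTPRC at 37.6 with PMA and 53.2 with FSK. The part of other cells in these results was not tested. Theca and stroma markers, mostly collagen, summed to 404625 with PMA and 682387 with FSK, epithelial markers to 40646 with PMA and 34011 with FSK, and oocyte markers to 44.4 with PMA and 36.7 with FSK.

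The extracellular matrix list had 5 of 50 genes higher with PMA and 13 lower, and a median of -0.49. COL3A1, a fibrillar collagen, had 32915 with PMA and 134706 with FSK, which is 4.09-fold lower [4.04 to 4.14], and 126430.5 with FSH, 122856 with SC79 and 125516 in control, so the PMA library stood apart. SPARC, a collagen-binding glycoprotein, had 88390.0 with PMA and 248118 with FSK, and FBLN2, a fibulin, 23902 with PMA and 75171 with FSK. COL5A1 and COL5A2 had log2 ratios of -1.16 and -1.29, while the third chain of the same collagen, COL5A3, was among the genes highest with PMA. LOXL4, a collagen cross-linking oxidase, had 4633 with PMA and 345 with FSK, which is 13.4-fold higher [12.002 to 15.1], COL13A1, a membrane collagen, 1307 with PMA and 121 with FSK and COL7A1, of anchoring fibrils, 8505 with PMA and 2106 with FSK. The hydroxylase PLOD2, which modifies collagen, had 24696 with PMA and 59132 with FSK and 10094 in control.

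Among integrins, laminins and cadherins 6 of 33 genes were higher and 5 lower. ITGAX, an integrin known from myeloid cells, had 225 with PMA and 25.8 with FSK. ITGA2, ITGA3 and ITGA5 had log2 ratios of 1.18, 1.12 and 1.02. CTNNA2 and CTNNA3, alpha-catenins, had 56.1 with PMA and 660.0 with FSK, and 22.8 with PMA and 152 with FSK, and the cadherin CDH11 had 16541 with PMA and 57989.8 with FSK. Of 43 cytoskeleton genes 5 were higher and 0 lower. FLNC, a filamin of muscle, had 20499 with PMA and 7085 with FSK and ACTG2, smooth muscle actin, 1529 with PMA and 556 with FSK, with 27168 and 3382 in control.

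**Figure D4:**
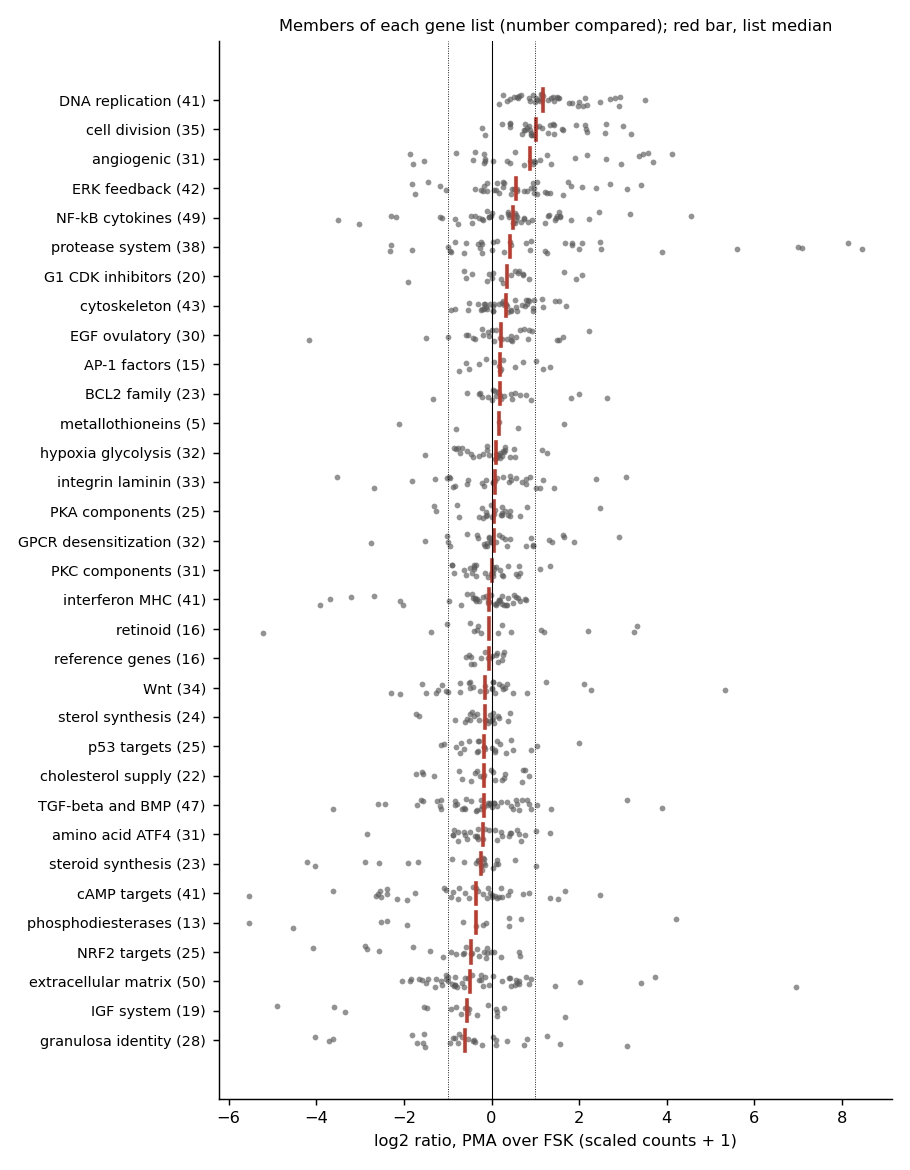
Log2 ratios of PMA over FSK (x axis, scaled counts plus 1) of the compared members of 33 gene lists (y axis, number compared in brackets), ordered by the list median, which is the red bar. Dotted lines mark 2-fold either way. DNA replication and cell division have the highest medians and granulosa genes the lowest, and single members of several lists lie far from their median.

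Among Wnt genes 4 of 34 were higher with PMA and 8 lower. Besides WNT7B, the ligand WNT5B had 5511 with PMA and 1278 with FSK and the transcription factor TCF7 515 with PMA and 106 with FSK. SFRP1, a secreted Wnt antagonist, had 2428 with PMA and 10350.3 with FSK and 1092 in control, and LGR5, a receptor of R-spondins, 147 with PMA and 731 with FSK. In the IGF system 1 of 19 was higher and 5 were lower, with a median of -0.56. IGFBP4, which binds IGFs, had 766 with PMA and 7739 with FSK, which is 10.1-fold lower [9.38 to 10.9], and the protease that cleaves it, PAPPA, 10045 with PMA and 29060.3 with FSK. HTRA3, a secreted serine protease, had 26.7 with PMA and 335 with FSK, beside 41.98 with FSH, 7.42 with SC79 and 4.59 in control. The binding proteins IGFBP3 and IGFBP6 lay slightly the other way, with log2 ratios of 0.10 and 0.28, and the ligand gene IGF2, with 30.7 with PMA and 17.8 with FSK, was under the minimum level.

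In the list of RGS proteins and G protein-coupled receptors 6 of 32 were higher and 3 lower. ADGRG1, an adhesion receptor, had 1977 with PMA and 262 with FSK, and S1PR3, a sphingosine phosphate receptor, 2235 with PMA and 14992 with FSK, which is 6.71-fold lower [6.42 to 7.02]. PTHLH, the parathyroid hormone-like peptide, had 733 with PMA and 235 with FSK. SPHK1 and S1PR3, the enzyme that makes sphingosine phosphate and a receptor for it, lay on opposite sides.

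Targets of the oxidative stress factor NRF2 had 0 of 25 genes higher and 7 lower, with a median of -0.47. SLC7A11, the cystine carrier, had 3024 with PMA and 21677 with FSK, which is 7.17-fold lower [6.901 to 7.45], and 6498 with FSH, 12917 with SC79 and 6764 in control. NQO1, a quinone reductase, had 3863 with PMA and 13435 with FSK, and 8716 with FSH, 22952 with SC79 and 8669 in control. AKR1B10, an aldo-keto reductase with 69.3% own words, had 10.7 with PMA and 195 with FSK. In 5 of the 7 genes PMA lay 2-fold below FSH, SC79 and control. With only protein-coding genes of at least 80% own words the lower ones were 4.

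Genes of retinoic acid went both ways, with 5 of 16 higher with PMA and 3 lower. DHRS3, which reduces retinaldehyde back to retinol, had 2873 with PMA and 286 with FSK, which is 10.1-fold higher [8.88 to 11.4], and STRA6, a retinol transporter, 538 with PMA and 55.5 with FSK. TGM2, a transglutaminase that retinoic acid induces, had 20392 with PMA and 4456 with FSK, and RARB, a receptor, 1081 with PMA and 491 with FSK. CYP26B1, which breaks down retinoic acid, had 577 with PMA and 1515 with FSK. ALDH1A1 was described above, and ALDH1A3, a second enzyme of this step, had 1510.4 with PMA and 3079 with FSK and 11615 in control. Of 5 compared metallothionein and zinc genes MT2A, which binds metal ions, had 58258 with PMA and 18516 with FSK and MT1F 87.1 with PMA and 381 with FSK.

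Lists with counts near the share over all genes were hypoxia and glycolysis, amino acid supply and ATF4, and p53 targets. Of 32 hypoxia and glycolysis genes 2 were higher, VEGFA and PFKFB4 (1376 with PMA and 615 with FSK), and PDK4, which slows pyruvate oxidation, was lower with 239.5 with PMA and 683 with FSK. Of 31 genes of the ATF4 list CHAC1 and DDIT3 were higher at log2 ratios of 1.34 and 1.02, and SLC7A11 was lower. Of 25 p53 targets PMAIP1 and PLK3 were higher, and ZMAT3 and GDF15 lower at -1.07 and -1.16. Of 16 reference genes 0 were 2-fold apart, and they ranged from -0.58 to 0.28. Of 41 interferon and MHC genes 0 were higher and 6 lower, and all 6 belong to antigen presentation by MHC class II.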

How the data were processed

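RNA of KGN cells was measured in 5 groups of 1 library each, and libraries were grouped by the treatment in their labels. The authors deposited estimated counts per transcript, and a normalized signal that equals these counts times 1 constant per library, 0.934 for PMA and 1.03 for FSK. Trimmomatic, kallisto and edgeR are the tools in the submitters' processing notes. Which genome build and transcript index were used is not given in the sources used here. Since the files hold transcripts where the design assumed genes, transcripts were added up by gene name, which gave 35453 sums, and the 303 unnamed transcripts, which held at most 0.0680% of a library, stayed out. Sums were scaled with edgeR 4.0.16 (TMM, R 4.3.3; factors 1.03 for PMA and 0.976 for FSK) on values rounded to whole numbers.

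A log2 ratio is that of PMA over FSK on scaled counts plus a pseudocount of 1. With 1 library per group no p-value was computed, and a gene counts as different at 2-fold if its higher library reached 100 scaled counts. Exact conditional binomial (Clopper-Pearson) 95% intervals come from rounded counts; they cover counting error only, as reads that carry no molecular identifiers may be copies. Against 0 counts a fold is a bound at 3 counts in that library. Own 31-base words are the share of a gene's words found in no other gene of GENCODE release 29, which held 91.0% of the named transcripts and gave the coordinates (GRCh38). Promoters are from RefSeq. Python 3.11.15 with pandas 2.3.3, numpy 2.4.6, scipy 1.17.1 and matplotlib 3.10.9 was used. Intervals and ratios were tested on simulated data that hold counting error alone, which cannot show the spread between cultures or libraries.

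Genes and the 38 lists were chosen with earlier results of these data known. Named were the 15 highest and 15 lowest ratios among protein-coding genes with a symbol, the 5 largest count differences each way, the 3 highest and 3 lowest of each list, and a set of steroid, granulosa and signalling genes; other list members past 2-fold or with a role beside these, and the sorting against FSH, SC79 and control, were added after values were seen. Some genes that this rule names are not reported here. Alternatives were 5 other scalings, other pseudocounts and minimum levels, protein-coding transcripts alone, and genes with mostly their own sequence.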

Additional observations from a re-analysis of the deposited data

How the results depend on the processing

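No paired analysis was possible because each group has 1 library. Of the 171 named genes at least 2-fold apart, all 1996 values under the alternatives kept their sign and 1981 stayed at 2-fold. Under 2-fold at some alternative were ADAMTS9, ALDH1A3, DDIT3, JUN, PDGFRA, PLK3, S1PR1, SRD5A1 and ZMAT3, whose log2 ratios lie within 0.1 of 1 or -1. The count of higher genes was 492 to 1023 and that of lower genes 443 to 920 over the alternatives with a minimum level, against 737 and 651. With no minimum level they were 2347 higher and 2966 lower, since genes of few counts enter. Scaling by total estimated counts moved the median over all genes to 0.08, and the authors' normalized values, an alternative added after the data were seen, moved it to -0.07. The share of differing genes that were higher was 53.1%, 59.9% with total counts, 47.8% with the authors' values and 44.2% with no minimum level. List medians turned sign between scalings for the G protein-coupled receptor, interferon and MHC, epithelial marker, PKA component, PKC component, retinoid and reference lists, which all lay between -0.12 and 0.14. Lower NRF2 targets numbered 4 in place of 7 with genes of mostly their own sequence alone, since fewer genes were compared. Genes with another leading transcript were 19 at a minimum of 500 counts and 11 at 50 percentage points, against 61. The motif shares at 4-fold are void as at 2-fold. A depth of 50.3 to 58.8, in units of 1e+06 counts, leaves genes under 100 scaled counts undescribed, and in 74.0% of compared genes the counting interval excludes a ratio of 1, while the spread between replicates is unknown.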

Other observations

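MHC class II genes, which present antigen to helper T cells, were lower with PMA than with FSK. Of 11 compared HLA-D genes 10 were at least 2-fold lower and 0 higher, with a median log2 ratio of -3.21. CIITA, their master coactivator, had 559 with PMA and 2379 with FSK, which is 4.26-fold lower [3.88 to 4.68], and 745 with FSH, 551 with SC79 and 582 in control. HLA-DRA had 786 with PMA and 10079 with FSK, which is 12.8-fold lower [11.9 to 13.8], and 2524 with FSH, 1732 with SC79 and 1855 in control. HLA-DOA, part of the peptide-loading regulator, had 23.9 with PMA and 441 with FSK, HLA-DPB1 123 with PMA and 1039.8 with FSK, and the invariant chain CD74 9181 with PMA and 37249 with FSK. HLA-DQA1 was the member under 2-fold, with 797 with PMA and 1327 with FSK. Class II genes vary between people and share sequence, and how that moved reads between them was not tested. Cytosolic ribosomal protein genes had smaller differences in 1 direction, with 77 of 82 below 0, a median of -0.40 and 0 at 2-fold. Their median stayed between -0.47 and -0.32 over the 6 scalings of the libraries.

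Neighbouring genes sometimes lay on the same side. Of 12501 compared genes with a position on GRCh38, 72 stood in 23 runs of at least 3 neighbours past 2-fold in the same direction, 12 runs higher with PMA and 11 lower. No share to set this beside was computed. The longest run was on chromosome 2 from 112736607 to 113278950 and held CKAP2L, IL1A, IL1B, IL1RN, PSD4 and PAX8, all higher with PMA. IL1RN, the antagonist of interleukin-1, had 948 with PMA and 212 with FSK, beside 203 with FSH, 166 with SC79 and 205 in control, and PAX8, a transcription factor, 794 with PMA and 385 with FSK. CKAP2L, a spindle protein in the same run, had 1259 with PMA and 399.5 with FSK, beside 1783 with FSH, 1695 with SC79 and 2064 in control, so its order of libraries was that of the mitotic genes and not of its neighbours. A run of lower genes held AKR1C1, AKR1C2 and AKR1C3 on chromosome 10, and another HLA-DOA, HLA-DPA1 and HLA-DPB1 on chromosome 6. These runs were looked for after other values had been seen.

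The most abundant transcript of a gene differed between PMA and FSK, with a share moved by at least 30 percentage points, in 61 of 12073 genes, 0.505%. The same count was 38 between control and FSH and 58 between FSH and SC79, libraries in which 51 and 65 genes were at least 2-fold apart. MYH7B, a myosin, showed what such cases look like, with transcript MYH7B-201 at 91.2% of the gene's counts with PMA and 0% with FSK, and 87.6% with FSH, 39.9% with SC79 and 0% in control. Its gene total had a log2 ratio of 0.26. A count near that of libraries with few other differences is no result about PMA and FSK.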
